A study of Mus musculus with 10 samples.

Results

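Fibronectin, tenascin and other matricellular proteins were examined in mouse lens epithelium that overexpressed transforming growth factor-β1 (TGF-β1). The set was taken from the count matrix by gene symbol and comprised Fn1, Tnc, Postn, Tgfbi, Spp1, Thbs1, Thbs2, Vcan, Aebp1 and Cpxm2, which are 10 of the 50763 genes counted. RNA sequencing covered 10 libraries from FVB/N mice that were 3 weeks old, in 3 groups. Wild-type (WT) mice gave 3 libraries, the transgenic line OVE853 gave 3 and the independent line OVE918 gave 4, and each library was a separate pool. WT and OVE853 pools came from up to 9 mice each and OVE918 pools from up to 7, and mice of both lines carried an anterior subcapsular plaque. In both lines a transgene for an active, secreted human TGF-β1 was driven by the αA-crystallin promoter, which is active in lens cells and no further allele or treatment was given for any group.

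Matricellular proteins are secreted into the extracellular matrix, where they bind both cells and structural fibers and alter adhesion, migration and growth factor activity more than they carry load. Many are low in resting epithelia and abundant in wounds, scars and developing tissue, and several are textbook targets of TGF-β signaling. In the lens, anterior subcapsular cataract forms when epithelial cells become myofibroblast-like under TGF-β and deposit a fibrotic matrix beneath the capsule.

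Of the 9 matricellular genes that could be tested, 7 were elevated in both lines, namely Fn1, Tnc, Postn, Tgfbi, Spp1, Aebp1 and Cpxm2. Vcan fell in OVE918, Thbs1 passed the test in neither line, and Thbs2 was too low for the main test. The group means rose 2.38 to 25.6-fold in OVE853 and 3.3 to 94.3-fold in OVE918 for the 7 elevated genes, with Spp1 at the top of both ranges. A gene was called a differentially expressed gene (DEG) where its false discovery rate (FDR, the Benjamini-Hochberg adjusted p of edgeR's quasi-likelihood test over all 11094 genes tested) was 0.05 or less and its log2 fold change was 1 or more in either direction. By that rule 7 matricellular genes were DEGs in OVE853, against a background of 2.51% of all tested genes called higher and 1.91% called lower. In OVE918 8 were DEGs, against 2.58% of all tested genes called higher and 3.01% called lower, and 1.8% of all tested genes were called higher in both lines. Over the 9 genes, log2 fold changes had a median of 1.77 in OVE853 and 2.52 in OVE918, beside -0.01 and 0.01 over all tested genes. For the 7 elevated genes every library of each line was above every WT library, as it was for 23.4% of all tested genes in OVE853 and 12.3% in OVE918. Both comparisons used the same WT libraries, so their calls were not independent of each other.

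These counts have a limit in the expression filter, which kept genes with at least 2 FPKM (fragments scaled to exon length and library size) in at least 5 of 10 libraries. Of the 9 genes, 6 (Fn1, Tnc, Postn, Tgfbi, Spp1 and Cpxm2) reached that minimum in no WT library and entered the test only through the transgenic libraries, so that their direction was tied to having passed. The remaining 3, Thbs1, Vcan and Aebp1, reached it in every WT library. Vcan reached it in no OVE918 library and entered through WT and OVE853, so its lower level in OVE918 was tied to the filter as well. A gene at that minimum only in the 3 WT libraries could not be tested, whereas one at it only in the transgenic libraries could. The counts and shares called lower, here and below, therefore leave out genes that were at the minimum in WT alone.

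Promoter sequence was drawn from the RefSeq promoter table, in which 8 of the 10 genes had an entry, all but Fn1 and Thbs1. The 250 bases before each listed start were matched to GRCm39 and read on both strands for a SMAD element, an AP-1 element, a TATA box and a CCAAT box. Stretches from Tgfbi and Cpxm2, the pair of genes with the most similar profiles, and from Spp1 and Thbs2, whose mean levels went opposite ways, are given 5′ to 3′ on the gene's strand with matches in capitals. The first 3 are the parts of the windows that lie outside the annotated gene (187, 161 and 246 bases). For Spp1 a stretch of 30 bases is given, because its window lies within a first exon annotated from a more distant start. The positions are chr13:56757149-56757335 (plus strand) for Tgfbi, chr7:131756560-131756720 (minus strand) for Cpxm2, chr17:14914529-14914774 (minus strand) for Thbs2 and chr5:104582927-104582956 (plus strand) for Spp1.
Tgfbi: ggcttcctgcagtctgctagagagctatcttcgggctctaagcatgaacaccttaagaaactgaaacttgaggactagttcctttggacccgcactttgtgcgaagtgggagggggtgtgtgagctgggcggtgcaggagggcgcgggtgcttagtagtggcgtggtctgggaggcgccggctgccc
Cpxm2: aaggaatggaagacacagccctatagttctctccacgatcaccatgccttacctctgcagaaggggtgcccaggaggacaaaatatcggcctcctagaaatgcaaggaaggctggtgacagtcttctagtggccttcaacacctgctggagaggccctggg
Thbs2: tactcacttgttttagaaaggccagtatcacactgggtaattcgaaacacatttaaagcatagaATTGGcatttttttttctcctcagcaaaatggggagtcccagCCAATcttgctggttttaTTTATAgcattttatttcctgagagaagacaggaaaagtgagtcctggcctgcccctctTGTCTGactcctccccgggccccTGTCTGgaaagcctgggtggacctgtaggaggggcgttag
Spp1: cctgATTGGtggagacTGTCTGgaccagca
The capitals TGTCTG mark the SMAD element on the opposite strand. Those reading ATTGG and CCAAT mark the CCAAT box on either strand, and TTTATA marks the TATA box on the opposite strand. In the window nearest each gene's canonical start, the SMAD element (CAGACA) was found in 2 of 8 genes, Spp1 and Thbs2, and in 17.1% of all 32851 windows in the table. The letters of the TATA box (TATAAA) were found in 4 of 8, Tnc, Postn, Spp1 and Thbs2, and in 12.4% of all windows, at any position. They began 26 bases before the listed start in Postn, 126 in Tnc and 211 in Spp1. In Thbs2 they lay on the opposite strand, 126 bases before the start. The CCAAT box was found in 3 of 8, Spp1, Thbs2 and Vcan, and in 33.8% of all windows. The AP-1 element (TGANTCA) was found in 0 of 8 and in 6.75% of all windows. These shares count every listed window, while each gene was counted only by the window nearest its canonical start. A further window of Tnc held a SMAD element on the opposite strand, 71 bases before its own start. The further windows of Postn and Spp1 held no match. Spp1, the gene with the largest rise, and Thbs2, which had lower means in both lines, thus held the same 3 kinds of match, whereas Tgfbi and Cpxm2 held none of the 4. A match of letters is a description of sequence and does not show binding.

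Depth was similar across groups, with 24073311 to 31908525 counted read pairs per library. The labels were checked by Tgfb1, whose counts may hold reads from the human transgene beside those of the mouse gene. Its level was 50.6 to 61.7 CPM (counts scaled to library size with trimmed-mean-of-M-values factors, TMM) in WT, 339 to 361 in OVE853 and 715 to 881 in OVE918, so the groups did not overlap and OVE918 was 2.22-fold above OVE853. The 6 lens epithelial markers (Foxe3, Pax6, Six3, Cdh1, Cryaa and Cryab) were present in every library and none was a DEG in either line. Cdh1 (-0.76, FDR = 0.0211, in OVE853 and -0.61, FDR = 0.0304, in OVE918 on the log2 scale) and Six3 (-0.38, FDR = 0.0096, and -0.66, FDR = 0.000123) were lower past the FDR in both lines but below the minimum size. Markers of other ocular tissues varied among the pools, and some differed between WT and the lines. Summed over 5 corneal epithelial genes (Krt12, Krt5, Krt14, Krt15 and Aldh3a1), the level was 239 to 1630 CPM in WT. It was 64.8 to 95.4 in OVE853 and 27.3 to 82.6 in OVE918. Aldh3a1, the 1 tested, was a lower DEG in both lines (log2 fold changes -3.65, FDR = 0.0123, and -4.11, FDR = 0.00279), as were 1.53% of all tested genes. The part of these tissues in the results was not tested. WT replicate 3 stood apart, with 722 CPM summed over 5 retinal neuron markers against 21.3 to 114 in the other libraries, so several results that lean on it are also given without it.

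**Figure D1:**
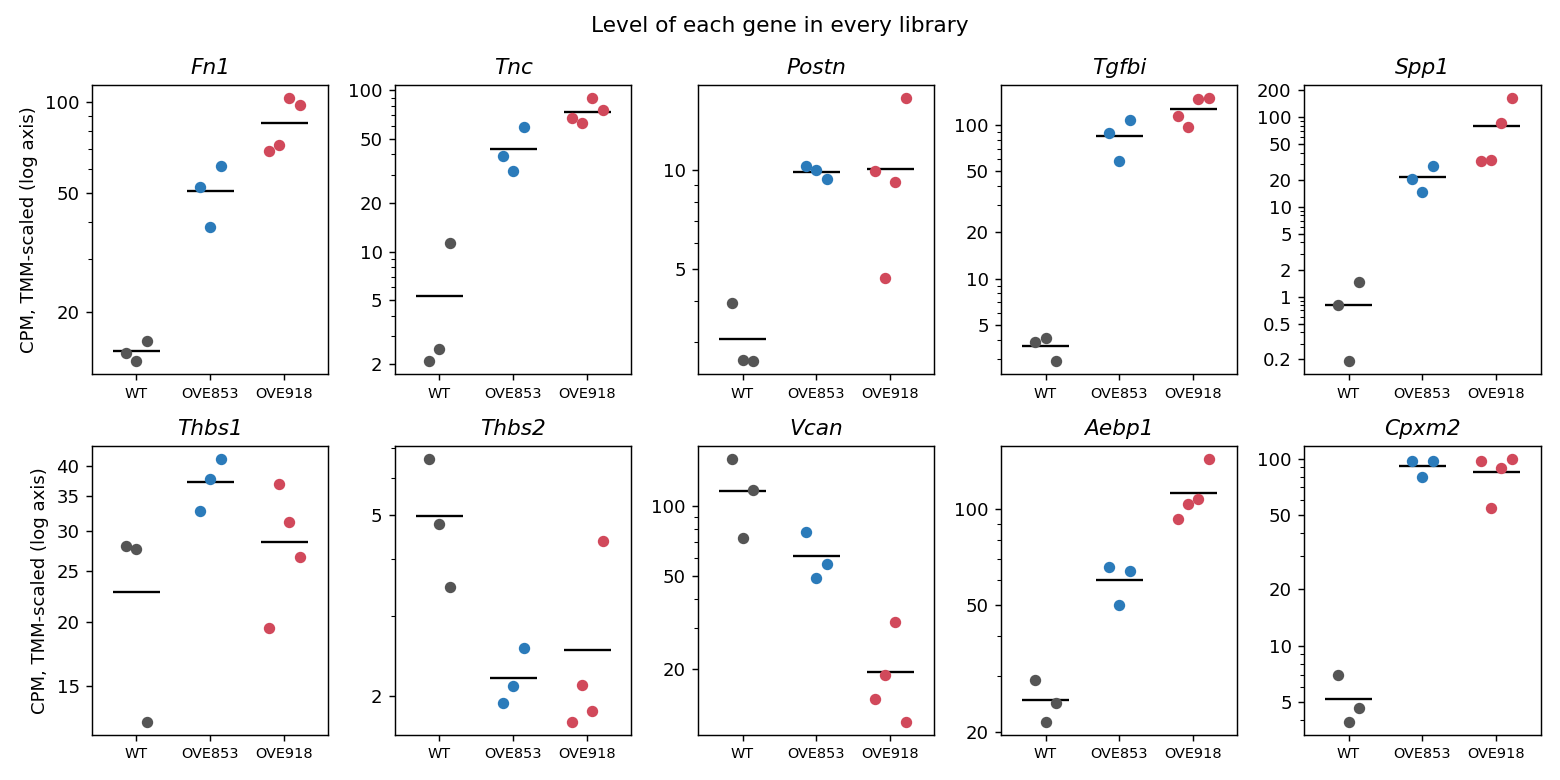
TMM-scaled CPM (log axis, range set per panel) of each of the 10 genes in the 3 WT, 3 OVE853 and 4 OVE918 libraries; each point is a library and each bar the group mean. All transgenic libraries lie above all WT libraries for Fn1, Tnc, Postn, Tgfbi, Spp1, Aebp1 and Cpxm2, whereas Vcan descends from WT to OVE918.

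Fn1 (ENSMUSG00000026193.17, chr1:71624673-71692419, minus strand) encodes fibronectin, a glycoprotein that cells assemble into fibrils through integrins. Its level was 14.7, 13.8 and 16.1 CPM in WT, 52.3, 38.4 and 61.5 in OVE853 and 68.9, 72.1, 103 and 97.4 in OVE918. The 3 groups formed 3 separate bands with no overlap, and the WT libraries were tightly spaced. The log2 fold change was 1.77 ± 0.19 (SE) in OVE853 (FDR = 0.000257) and 2.52 ± 0.18 in OVE918 (FDR = 1.27e-05). Counts were per gene, so spliced forms of fibronectin such as the extra domain A form were not separated.

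Tnc (ENSMUSG00000028364.17, chr4:63878014-63965443, minus strand) encodes tenascin-C, an oligomeric glycoprotein of wounds that modulates adhesion to fibronectin. It measured 2.1, 2.5 and 11.3 CPM in WT, 38.9, 31.8 and 59 in OVE853 and 67, 62.9, 89.4 and 75.4 in OVE918. WT replicate 3, the pool with high retinal and corneal markers, was far above the other WT libraries but still below every transgenic library. The rise was 3.01 ± 0.55 (log2, SE) in OVE853 (FDR = 0.0103) and 3.78 ± 0.52 in OVE918 (FDR = 0.00208). Without WT replicate 3 the log2 fold changes were 4.22 (FDR = 1.67e-05) and 4.99 (FDR = 4.38e-06), and Tnc stayed a DEG in both lines without any other single library.

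Postn and Tgfbi encode the fasciclin-domain proteins of the set. Postn (ENSMUSG00000027750.18, chr3:54268501-54298471, plus strand) encodes periostin, which binds collagen, tenascin-C and integrins. Its level was 3.94, 2.65 and 2.63 CPM in WT, 10.3, 10 and 9.43 in OVE853 and 9.94, 4.69, 9.25 and 16.6 in OVE918. OVE853 libraries were nearly equal to each other, whereas the OVE918 libraries spread widely around the same mean, the lowest of them close to the highest WT library. Log2 fold changes were 1.69 ± 0.37 (SE) in OVE853 (FDR = 0.0131) and 1.72 ± 0.35 in OVE918 (FDR = 0.00681). In a test against a fold change of 2 rather than of no change, the FDR was 0.574 in OVE853 and 0.296 in OVE918, so a change beyond 2-fold was not shown for this gene.

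Tgfbi (ENSMUSG00000035493.12, chr13:56757336-56787375, plus strand) encodes the TGF-β-induced protein, an adhesion protein abundant in cornea and named for its response to the growth factor. It was measured at 3.89, 4.08 and 2.91 CPM in WT, 87.9, 57.8 and 108 in OVE853 and 114, 96.1, 146 and 149 in OVE918. Every transgenic library was far above the highest WT library, and the lines overlapped each other. The increase was 4.55 ± 0.26 (log2, SE) in OVE853 (FDR = 6.17e-06) and 5.13 ± 0.24 in OVE918 (FDR = 1.86e-06), which are 23.3 and 34.9-fold.

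Spp1 (ENSMUSG00000029304.16, chr5:104582165-104589235, plus strand) encodes osteopontin, a phosphorylated integrin- and CD44-binding glycoprotein made by bone cells, macrophages and injured epithelia. Its level was 0.805, 0.192 and 1.44 CPM in WT, 20.5, 14.5 and 28.6 in OVE853 and 32, 33.3, 86 and 162 in OVE918. WT libraries held 5 to 41 Spp1 read pairs each, the transgenic ones 391 to 3503. Groups did not overlap, and the ratio of the highest to the lowest OVE918 library was larger than for any other gene of the set. The log2 fold change was 4.68 ± 0.89 (SE) in OVE853 (FDR = 0.00961) and 6.56 ± 0.86 in OVE918 (FDR = 0.00119). The value rested partly on single pools, at 5.45 and 7.33 without WT replicate 3 and, for OVE918, 5.93 without OVE918 replicate 4, and Spp1 remained a DEG in each case.

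Macrophage markers, like Spp1, had higher mean levels in both lines. Summed over 10 genes (Ptprc, Adgre1, Csf1r, Cd68, C1qa, C1qb, C1qc, Cx3cr1, Tyrobp and Aif1), they measured 18.4 to 44.4 CPM in WT, 46.2 to 73.7 in OVE853 and 31.8 to 81.9 in OVE918, with none at 0 in a whole group. Of the 4 that were tested, 1 was a DEG in OVE918, C1qa at 1.35 on the log2 scale (FDR = 0.0446), and 0 in OVE853. Of all tested genes, 2.58% and 2.51% were called higher in OVE918 and OVE853. The mean of the sum went from 30.8 CPM in WT to 62 in OVE853 and 58.8 in OVE918, a smaller shift than that of Spp1. OVE918 replicate 4 had the highest value of both Spp1 and the macrophage sum, while replicate 3, the next highest for Spp1, had a macrophage sum of 51.8 CPM, below the 69.8 of replicate 1. Their part in the Spp1 result was not tested. In these bulk pools, a change in the number of cells of a type and a change in RNA per cell cannot be told apart, whether levels rise or fall.

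Thbs1 and Thbs2 encode thrombospondins 1 and 2, trimeric glycoproteins that restrain angiogenesis, of which the first can also activate latent TGF-β. Thbs1 (ENSMUSG00000040152.10, chr2:117941974-117957616, plus strand) measured 28, 27.6 and 12.8 CPM in WT, 32.7, 37.8 and 41.3 in OVE853 and 19.4, 36.9, 31.1 and 26.7 in OVE918. All OVE853 libraries were above all WT libraries, a separation also shown by 23.4% of all tested genes in the higher direction, while OVE918 and WT overlapped. The log2 fold change was 0.71 (95% CI 0.06 to 1.36, FDR = 0.119) in OVE853 and 0.33 (95% CI -0.28 to 0.93, FDR = 0.452) in OVE918. Without WT replicate 3, whose Thbs1 level was lowest, the values were 0.42 and 0.04. Thbs1 therefore passed the test in neither line, although the intervals leave room for a rise of up to 1.36 on the log2 scale in OVE853.

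Thbs2 (ENSMUSG00000023885.11, chr17:14885761-14914528, minus strand) was under the FPKM minimum in all 10 libraries. Its level was 6.62, 4.77 and 3.47 CPM in WT, 1.93, 2.11 and 2.55 in OVE853 and 1.76, 2.12, 1.86 and 4.38 in OVE918. OVE853 lay wholly below WT, as did 22% of the genes in the main test, which did not include Thbs2. OVE918 replicate 4, by contrast, fell within the WT range and the other 3 OVE918 libraries below it. In a fit with edgeR's own filter, which tested 18058 genes, the log2 fold change was -1.16 (95% CI -2 to -0.33, FDR = 0.0667) in OVE853 and -0.95 (95% CI -1.73 to -0.17, FDR = 0.0901) in OVE918, with 6.89% and 8.79% of the genes in that fit called. It became a DEG in both lines without OVE918 replicate 4 (-1.17, FDR = 0.0233, and -1.35, FDR = 0.0119) and without WT replicate 3 (-1.41, FDR = 0.0357, and -1.17, FDR = 0.0452), so its call depended on single pools.

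Vcan (ENSMUSG00000021614.18, chr13:89803431-89890814, minus strand) encodes versican, a large chondroitin sulfate proteoglycan that binds hyaluronan. In OVE918 it was the gene of the set that went down most. In OVE853 the log2 fold change of Thbs2 in the fit with edgeR's own filter was lower (-1.16 against -0.93), and neither was a DEG there. Vcan measured 160, 72.8 and 117 CPM in WT, 77.5, 49.1 and 56.8 in OVE853 and 14.9, 18.9, 31.9 and 11.9 in OVE918. OVE918 lay below every other library, as did 15% of all tested genes below WT, whereas the highest OVE853 library was above the lowest WT library. Vcan fell by 2.58 ± 0.36 (log2, SE) in OVE918 (FDR = 0.000995), which is 6-fold lower. In OVE853 the log2 fold change was -0.93 (95% CI -1.77 to -0.09, FDR = 0.119) and did not pass.

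Ciliary epithelial markers went the same way as Vcan. Summed over 5 genes of the non-pigmented ciliary epithelium (Best2, Slc6a13, Wfdc1, Zic1 and Opcml), they measured 162 to 242 CPM in WT, 43.8 to 61.3 in OVE853 and 15.6 to 26.7 in OVE918. Of the 4 tested, 3 were lower DEGs in OVE853, beside 1.91% of all tested genes, and 4 in OVE918, beside 3.01%. None of the 5 markers was at 0 in a whole group. Their part in the Vcan result was not tested.

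Aebp1 and Cpxm2 encode secreted carboxypeptidase-like proteins with a collagen-binding discoidin domain. Aebp1 (ENSMUSG00000020473.15, chr11:5811762-5822112, plus strand), also called aortic carboxypeptidase-like protein, measured 29.2, 21.6 and 24.8 CPM in WT, 65.8, 50 and 63.9 in OVE853 and 93.2, 104, 108 and 144 in OVE918. As with Fn1, the groups stood as 3 bands without overlap. The log2 fold change was 1.25 ± 0.17 (SE) in OVE853 (FDR = 0.0011) and 2.16 ± 0.16 in OVE918 (FDR = 1.58e-05). Aebp1 was the only elevated gene of the set that already reached 2 FPKM in every WT library, so it did not depend on the transgenic libraries to enter the test.

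Cpxm2 (ENSMUSG00000030862.15, chr7:131634409-131756559, minus strand) was measured at 6.93, 3.92 and 4.63 CPM in WT, 96.8, 79.2 and 97.4 in OVE853 and 97.1, 54.6, 89.2 and 99.6 in OVE918. Both lines were far above WT, and they overlapped each other. Its rise was 4.15 ± 0.25 (log2, SE) in OVE853 (FDR = 8.28e-06) and 4.05 ± 0.24 in OVE918 (FDR = 5.27e-06). The 95% intervals of these log2 fold changes (3.6 to 4.7 and 3.53 to 4.57) lay above those of its relative Aebp1 (0.87 to 1.63 and 1.8 to 2.51).

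Fibroblast and keratocyte markers were checked beside the elevated genes, since stromal cells also make them. Of 10 markers, Kera was at 0 in every library, and Lum, Dpt, Tcf21, Twist2 and Pi16 each stayed under 1 CPM in every library. The summed level was 166 to 265 CPM in WT, 493 to 641 in OVE853 and 307 to 423 in OVE918, nearly all of it from Col6a3 and Pdgfrb. Of these, Col6a3 was a DEG in both lines (1.8 in OVE853, FDR = 0.00348, and 1.19 in OVE918, FDR = 0.015, on the log2 scale) and Pdgfrb in neither. Col3a1, by contrast, had means of 0.624, 1.09 and 2.21 CPM in WT, OVE853 and OVE918. Dcn went the other way, with means of 1.4, 0.401 and 0.504 CPM in the same order. The part of these cells in the elevated levels was not tested.

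**Figure D2:**
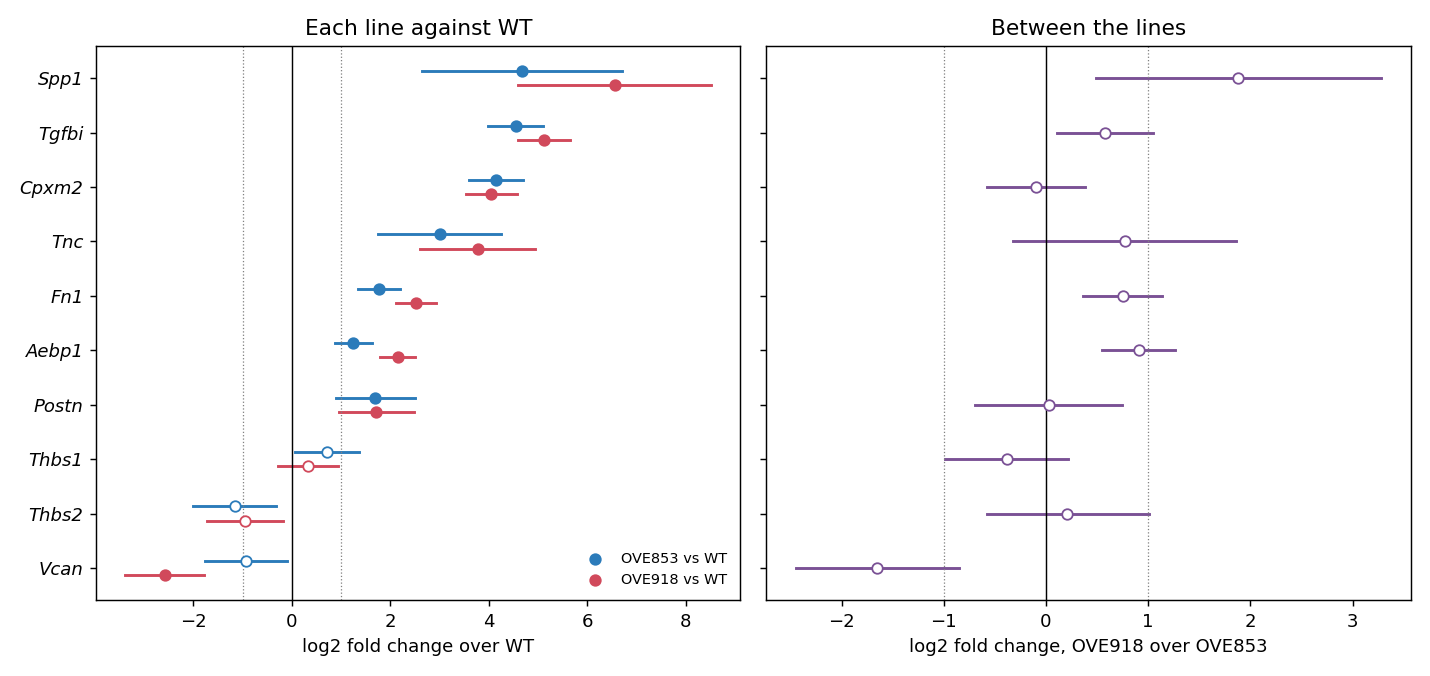
Log2 fold changes with 95% confidence intervals from the edgeR fit for the 10 genes, each line over WT at left and OVE918 over OVE853 at right; filled points are DEGs, dotted lines mark a log2 fold change of 1 in either direction, and Thbs2 comes from the fit with edgeR's own filter. Spp1, Tgfbi and Cpxm2 exceed 4 in both lines, and no point is filled between the lines.

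Between the lines, the question was whether the higher Tgfb1 count of OVE918 went with higher matricellular levels. By edgeR's quasi-likelihood test 0 of the 9 genes were DEGs between OVE918 and OVE853, against 0.487% of all tested genes. At an unadjusted p under 0.05 there were 5 (Fn1, Tgfbi, Spp1, Vcan and Aebp1), beside 22.9% of all tested genes, and DESeq2 called 1, Vcan. Aebp1 was the single gene of the set past the FDR, at 0.91 (95% CI 0.55 to 1.26, FDR = 0.037), as were 1.32% of all tested genes, but its change was below the minimum size. Over the libraries left out one at a time its FDR ranged from 0.0221 to 0.169, so this result depended on the pools used. Fn1 was 0.75 higher on the log2 scale in OVE918 (95% CI 0.36 to 1.14, FDR = 0.0708), and Spp1 1.88 (95% CI 0.49 to 3.28, FDR = 0.147).

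Vcan was the gene with the clearest lower value in OVE918, with a log2 difference of -1.65 (95% CI -2.45 to -0.85, FDR = 0.0605) and no overlap between the lines, a separation that 16.2% of all tested genes also had in the lower direction. Without OVE918 replicate 3, the OVE918 library with most Vcan, the difference was -2 with FDR = 0.0261, which made it a DEG. Cpxm2 and Postn had means close to equal between the lines, with log2 differences of -0.1 (95% CI -0.58 to 0.38) and 0.03 (95% CI -0.69 to 0.74). For Tnc the difference was 0.77 (95% CI -0.32 to 1.86, FDR = 0.363), for Tgfbi 0.58 (95% CI 0.11 to 1.05, FDR = 0.161) and for Thbs1 -0.38 (95% CI -0.99 to 0.22, FDR = 0.4). The intervals of Tnc, Tgfbi, Fn1 and Spp1 reach past 1, so these data do not limit the differences between the lines to less than 2-fold. Fn1, Tnc, Spp1 and Aebp1 did not overlap between the lines, as was so for 13.4% of all tested genes in the higher direction.

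Levels compared between genes per exon length, as mean FPKM, gave a different order in each group. In WT the order was led by Vcan at 7.26 ± 2.5 (SD, n = 3) and Aebp1 at 6.06 ± 0.726, whose spreads overlap, followed by Thbs1 at 3.53 ± 1.29. Cpxm2, Fn1, Tgfbi, Postn, Thbs2 and Tnc followed at 1.38 down to 0.715, neighbors within each other's spread, and Spp1 was last at 0.354 ± 0.279. In OVE853 Tgfbi at 32 ± 10.7 and Cpxm2 at 26.2 ± 3.95 led and did not differ beyond their spread, and Aebp1 came next at 15.4 ± 2.74. In OVE918 (n = 4) the leaders were Tgfbi at 41.9 ± 7.61, Spp1 at 31.4 ± 23.1, Aebp1 at 25.4 ± 4.38 and Cpxm2 at 21.4 ± 4.11, with Spp1 spanning its neighbors on both sides. Vcan was thus first of 10 in WT, at rank 8 in OVE853 and at rank 9 in OVE918, above only Thbs2.

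Summed over the 10 genes, FPKM was 23.6 ± 3.8 (SD, n = 3) in WT, 108 ± 25.1 (n = 3) in OVE853 and 145 ± 38.1 (n = 4) in OVE918. Vcan made up 30.7% of the WT mean sum, 3.77% of the OVE853 sum and 0.801% of the OVE918 sum. Tgfbi went from 5.41% in WT to 29.5% in OVE853 and 28.8% in OVE918, and Spp1 from 1.5% to 9.13% and 21.6%. Fn1, by contrast, held 5.69%, 4.53% and 5% of the sum, so that its share was similar in all 3 groups while its own level rose.

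**Figure D3:**
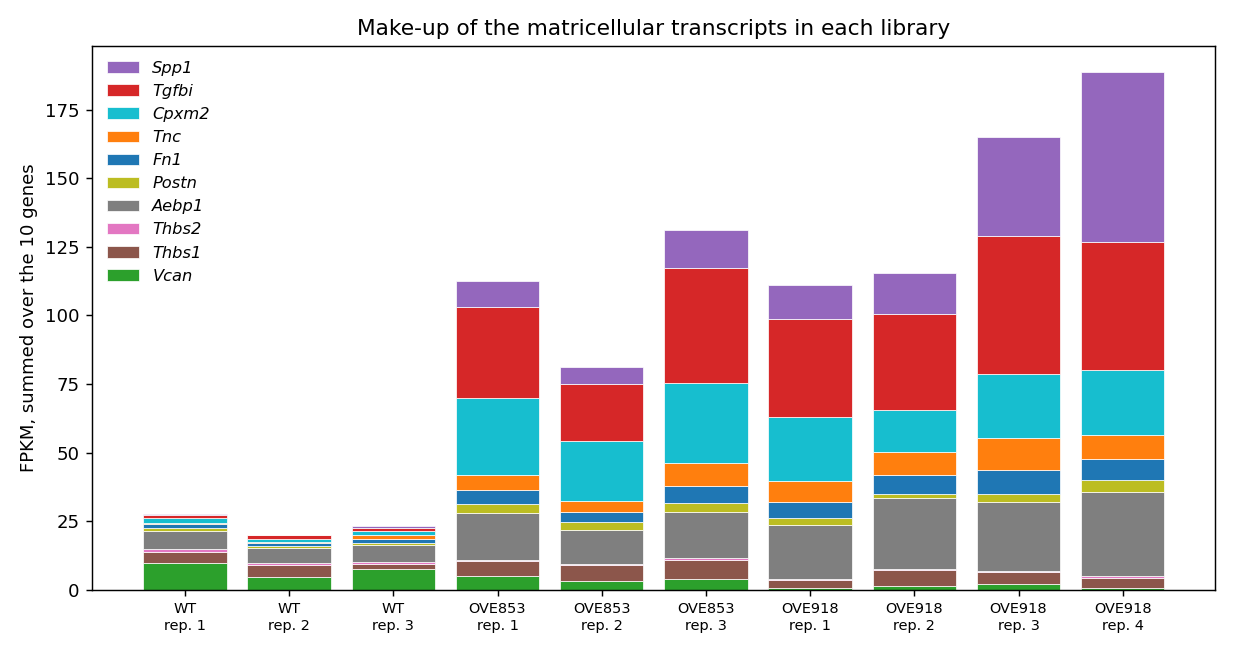
Stacked bars of FPKM for the 10 genes in each library, from WT at left through OVE853 to OVE918 at right. WT libraries total 20.1 to 27.7 FPKM, mostly Vcan, Aebp1 and Thbs1, and transgenic libraries total 81.4 to 189, with Tgfbi, Cpxm2, Aebp1 and, in OVE918, Spp1 as the main blocks.

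Across the 10 libraries the elevated genes varied together. Pearson's r of log2 CPM was highest for Tgfbi and Cpxm2 (r = 0.98, n = 10 libraries) and lowest for Vcan and Aebp1 (r = -0.86). These values mostly restate the difference between WT and transgenic libraries, which share groups and depth scaling, and are given as a description. Among the genes most like the mean standardized profile of the tested members were Nt5e (r = 0.991), which encodes the ecto-nucleotidase CD73, and Cdsn (r = 0.987), which encodes corneodesmosin. Nt5e measured 3.19 to 3.79 CPM in WT, 16.5 to 18.9 in OVE853 and 16.7 to 27.3 in OVE918. Cdsn was at 1.05 to 1.43 CPM in WT, 6.3 to 8.99 in OVE853 and 8.23 to 12.5 in OVE918.

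Other genes of the same protein families were then read from a list. Of 49 further tenascin, thrombospondin, CCN, SPARC, fibulin, spondin, lectican, carboxypeptidase, SIBLING, EMILIN and microfibril genes listed, 24 were tested. Spock3, which reached the FPKM minimum in WT alone, was left out, with means of 22.9, 4.25 and 4.16 CPM in WT, OVE853 and OVE918. Emilin2, also untested, went the other way, with means of 1.26, 3.76 and 8.62 CPM. In OVE853 6 were DEGs, of which 2 rose (Fbln2 and Hmcn1, beside a background of 2.51% of all tested genes) and 4 fell (Tnxb, Sparcl1, Fbln7 and Spon2, beside 1.91%). In OVE918 7 were DEGs, of which 1 rose (Fbln2, beside 2.58%) and 6 fell (Tnxb, Sparcl1, Fbln1, Fbln7, Efemp1 and Spon2, beside 3.01%). The 24 genes had a median log2 fold change of 0.15 in OVE853 and -0.03 in OVE918. The 4 that fell in OVE853 fell in OVE918 as well, as did 1.53% of all tested genes.

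Fbln2, which encodes the basement membrane and elastic fiber protein fibulin-2, measured 8.31 to 39.7 CPM in WT, 58.3 to 130 in OVE853 and 133 to 224 in OVE918. Its log2 fold change was 2.06 ± 0.51 (SE, FDR = 0.0327) in OVE853 and 2.95 ± 0.48 (FDR = 0.00492) in OVE918. Leaving out WT replicate 3, the library with least Fbln2, gave 1.66 (FDR = 0.0366) and 2.55 (FDR = 0.00349). The OVE853 call was lost without WT replicate 2 (1.99, FDR = 0.0829), OVE853 replicate 1 (2.03, FDR = 0.092), OVE853 replicate 3 (1.77, FDR = 0.113) or OVE918 replicate 3 (2.06, FDR = 0.0508), whereas the OVE918 call was kept with each of the 10 libraries left out in turn. Tnxb, which encodes tenascin-X, a collagen-associated tenascin, went opposite to Tnc, with log2 fold changes of -2.02 (FDR = 0.00504) and -2.59 (FDR = 0.000443). Tnxb was at 87.4 to 119 CPM in WT, 22.5 to 27.7 in OVE853 and 9 to 29.9 in OVE918, so the tenascins changed in opposite directions without overlap with WT (22% and 15% of all tested genes lay wholly below WT in the respective lines). Spon2, encoding the integrin-binding spondin-2, fell by 1.5 and 2.1 on the log2 scale (FDR = 0.000112 and 4.68e-06). Fbln7 fell by 1.31 and 2.15 (FDR = 0.00102 and 1.58e-05).

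Sparcl1, which encodes the SPARC-like protein hevin, fell by 1.97 in OVE853 and 1.48 in OVE918 on the log2 scale (FDR = 0.0299 and 0.0495), and WT varied from 20.8 to 85.2 CPM. Without WT replicate 3 its value in OVE918 was -0.61 (FDR = 0.13), and that call was also lost with any 1 OVE853 or OVE918 library left out (FDR 0.0572 to 0.112). The OVE853 call was lost with any 1 OVE853 library left out (FDR 0.0556 to 0.105), so neither fall of Sparcl1 was secure. Efemp1, encoding fibulin-3, fell by 2.22 in OVE918 (FDR = 0.00951), and its value in OVE853 was -0.7 (FDR = 0.333). Leaving out WT replicate 3, the library with most Efemp1, gave -1.63 in OVE918 (FDR = 0.0197). Fbln1, encoding fibulin-1, fell by 1.82 in OVE918 (FDR = 0.000166) with -0.5 in OVE853 (FDR = 0.137), and was a DEG between the lines at -1.31 (FDR = 0.0243), as were 0.415% of all tested genes in that direction, a call lost with any 1 of the OVE853 libraries, OVE918 replicate 1 or OVE918 replicate 4 left out (FDR up to 0.132). Hmcn1, encoding hemicentin-1, rose by 1.36 ± 0.27 (SE) in OVE853 (FDR = 0.00961). Its value of 0.87 in OVE918 passed the FDR (0.0396) but was below the minimum size. Sparc itself, at 4930 to 6090 CPM in WT, had log2 fold changes of -0.02 and -0.17 and passed in neither line.

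Ccn1 and Ccn2, encoding matricellular proteins known as targets of mechanical and TGF-β signaling, were DEGs in neither line. Ccn2 was 0.79 lower in OVE853 (FDR = 0.0313) and 0.88 lower in OVE918 (FDR = 0.0101) on the log2 scale, past the FDR, as were 15.8% and 19% of all tested genes, but below the minimum size. Ccn1 varied from 33.7 to 214 CPM within WT alone, and the interval of its log2 fold change in OVE853 ran from -2.13 to 2.42, so neither a rise nor a fall was detectable.

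**Figure D4:**
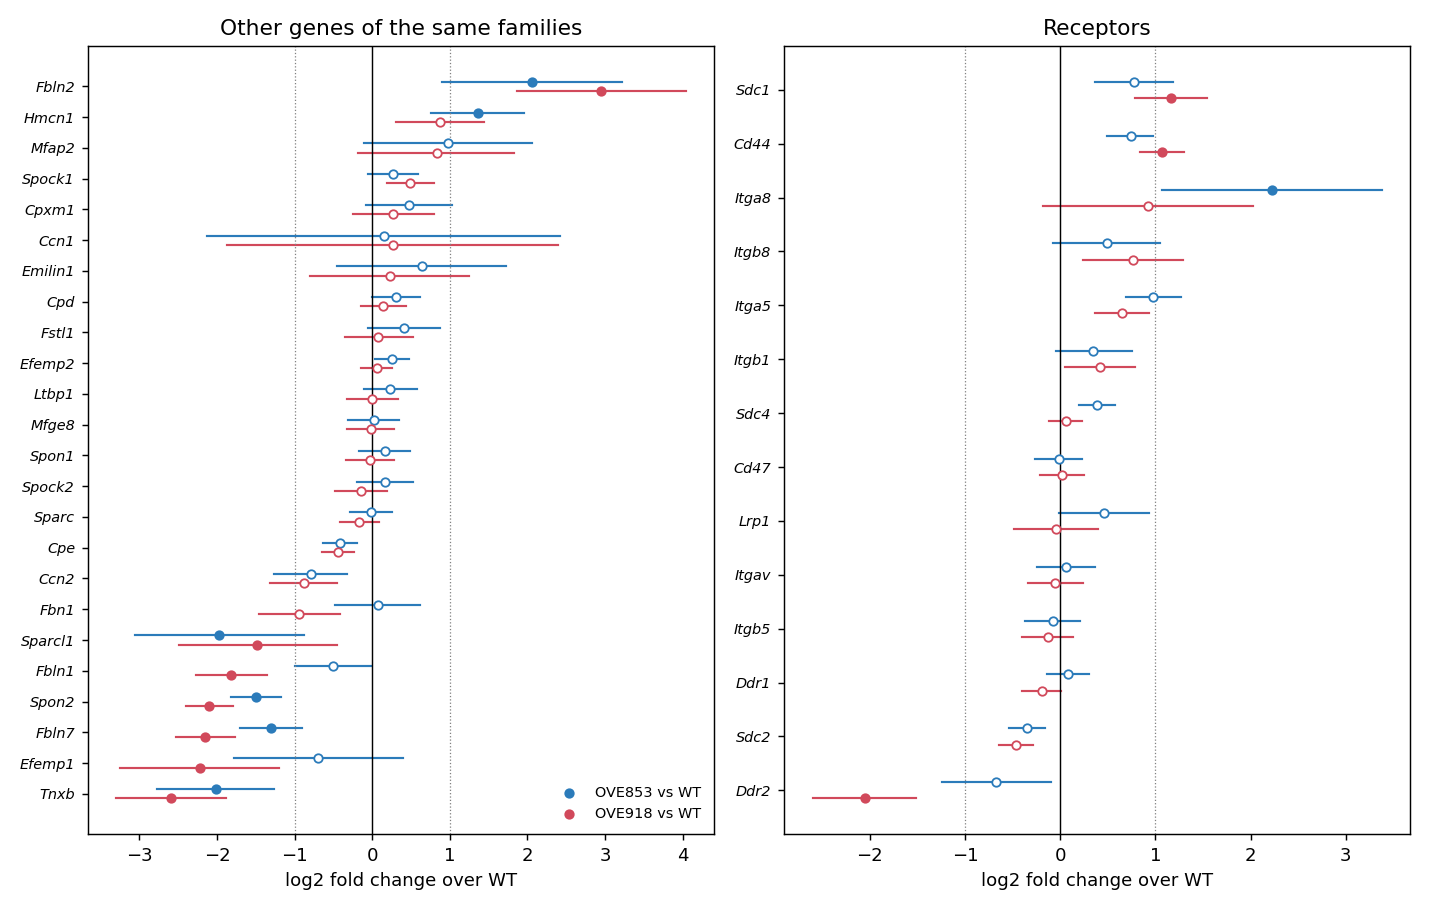
Log2 fold changes over WT with 95% confidence intervals for the 24 tested genes of related families at left and the 14 tested receptors at right; filled points are DEGs and dotted lines mark a log2 fold change of 1 in either direction. Fbln2 is the only related gene filled on the right of 0 in both lines, and Tnxb, Fbln7, Spon2 and Sparcl1 are filled on the left in both.

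Of 22 integrin, syndecan and other receptor genes listed, 14 were tested, and none of these 14 was a DEG in both lines. The filter left out Egfr, which measured 20.5 to 55.3 CPM in WT, 7.67 to 8.15 in OVE853 and 4.75 to 8.73 in OVE918. Itga9, also untested, had means of 4.28, 8.24 and 5.55 CPM in the same order. The counts below therefore do not cover every listed receptor. Itga8, encoding the α8 integrin subunit that binds osteopontin, fibronectin and tenascin-C, rose by 2.22 ± 0.51 (log2, SE) in OVE853 (FDR = 0.024) as the 1 DEG of 14 in that line, beside 2.51% of all tested genes called higher. Its level was 2.03 to 13.3 CPM in WT and 30.2 to 42.8 in OVE853, without overlap. It lost its call without WT replicate 2 (2.32, FDR = 0.0555) and with any 1 OVE853 library left out (2.11 to 2.35, FDR 0.0552 to 0.0778). Leaving out WT replicate 3, the library with least Itga8, gave 1.75 (FDR = 0.00195). Its OVE918 value was 0.92 (FDR = 0.234). In OVE918 3 of 14 were DEGs, 2 higher beside 2.58% of all tested genes and 1 lower beside 3.01%. Sdc1, encoding syndecan-1, rose by 1.16 ± 0.17 (FDR = 0.000988), with 0.78 in OVE853 (FDR = 0.0178). Cd44, encoding a hyaluronan and osteopontin receptor, rose by 1.07 ± 0.1 (FDR = 6.72e-05), with 0.74 in OVE853 (FDR = 0.00174). Both OVE853 values passed the FDR but were below the minimum size, and neither gene passed the FDR between the lines (0.208 and 0.113). Without WT replicate 3 the OVE918 value of Sdc1 was 0.99 (FDR = 0.00157), below the minimum size. Ddr2, encoding a collagen receptor tyrosine kinase, fell by 2.05 ± 0.25 (FDR = 0.000255) and was also lower in OVE918 than in OVE853, at -1.38 (FDR = 0.0354), a call lost with any 1 of the OVE853 libraries, WT replicate 2 or OVE918 replicate 1 left out (FDR up to 0.172).

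Itga5, the α subunit of the main fibronectin receptor, was 0.98 higher in OVE853 (FDR = 0.000898) and 0.65 higher in OVE918 (FDR = 0.00465), both below the minimum size. Itgb8, a subunit of an integrin that activates latent TGF-β, had log2 fold changes of 0.49 (FDR = 0.197) and 0.77 (FDR = 0.0489), below the minimum size. Itgav, Itgb1 and Itgb5, which form further receptors for fibronectin, osteopontin, periostin and the TGF-β-induced protein, had log2 fold changes of -0.13 to 0.42 and passed the FDR in neither line.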

How the data were processed

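RNA from pooled lens epithelia was sequenced as mRNA libraries. Per the labels and the study's methods, reads were trimmed (cutadapt 5.2) and aligned to mm39 (STAR 2.7.11b) by the authors, who deposited raw counts of read pairs per RefSeq gene from featureCounts 2.0.8, reverse stranded. From these counts, edgeR 4.0.16 in R 4.3.3 was run here with TMM scaling, robust quasi-likelihood and all 3 groups in 1 fit. FPKM for the filter and for levels between genes used union exon lengths from GENCODE (GRCm39), found by symbol for 43252 genes and by synonym for 22, and 7489 genes without a length were not tested. CPM were TMM-scaled. Standard errors and 95% intervals came from the same fit, and the scripts were tested on simulated data. Alternatives were DESeq2 1.42.0, other scalings, filters and thresholds, a replicate block and each library left out. The promoter table is from RefSeq on GRCm38.p6, and its windows were each matched once to GRCm39.

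All 10 members are named. From the lists of related genes and receptors, the text names those called in both lines, the 6 with the largest absolute change in OVE918 and any called between the lines. Hmcn1, Itgav, Itgb1, Itgb5, Sparc, Ccn1, Ccn2 and the untested Egfr, Itga9, Spock3 and Emilin2 were added after their values were seen. Of the 3 genes most alike in profile to the members, 1 is not reported here. The members and lists were chosen with earlier results of these data known.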

Additional observations from a re-analysis of the deposited data

Results flagged for a closer look

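Thbs2 in OVE918 held a library far from the others. Replicate 4 was at 4.38 CPM against 1.76 to 2.12 in the other 3, and its gap made up 0.86 of the group's whole range, above Dixon's 95% critical value for 4 samples, which chance exceeds in about 1 in 20 groups. The same library had the highest Spp1, Postn, Aebp1, Tgfbi and Cpxm2 levels of the line and the lowest Vcan level. Fn1 and Tnc were highest in replicate 3.

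Between OVE918 and OVE853 the effects differed by the test of the difference itself for Aebp1 (0.91 on the log2 scale, higher in OVE918), Fbln1 (-1.31) and Ddr2 (-1.38), both lower in OVE918. For Aebp1 the difference is under the minimum size of 1.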

How the results depend on the processing

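The 7 matricellular DEGs of OVE853 were the same 7 genes, and the 8 of OVE918 the same 8, with each of the 10 libraries left out. A test against a fold change of 2 left 3 in OVE853 (Fn1, Tgfbi and Cpxm2). With only OVE918 and WT in the fit, Postn and Vcan fell under the filter and 6 of 7 tested were DEGs. Between the lines the count of 0 became 1 with DESeq2, without robust estimation (both Vcan) and by FDR alone (Aebp1), and ranged from 0 to 1 with libraries left out. The sign turned between the lines for Postn (-0.37 with the replicate block, -0.32 to 0.26 with libraries left out), for Cpxm2 (-0.19 to 0.06 with libraries left out) and for Thbs2 (-0.18 to 0.36 with libraries left out under edgeR's own filter, an alternative chosen after seeing the data). The cause of these shifts was not tested.

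Related family DEGs numbered 1 in OVE853 and 4 in OVE918 against a fold change of 2, and 12 in OVE918 both with edgeR's own filter and by FDR alone. Receptor DEGs in OVE853 numbered 2 with edgeR's own filter and with no filter, 0 with only the groups compared, 0 against a fold change of 2 and 6 by FDR alone, and ranged from 0 to 2 with libraries left out. In OVE918 they numbered 1 against a fold change of 2 and 6 by FDR alone.

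Replicate numbers are shared between groups, but deviations of same-numbered libraries correlated at only -0.303 to 0.0838, so the numbers did not pair them. With the replicate block, matricellular DEGs numbered 7, 8 and 0 in the 3 comparisons, related family DEGs 5 and 6, and receptor DEGs 0 and 3 in OVE853 and OVE918. Fbln2 was then a DEG in neither line (FDR = 0.093 and 0.0508), Sparcl1 not in OVE918 (FDR = 0.0949) and Itga8 not in OVE853 (FDR = 0.0556), in fits added for these genes after seeing the data. Over all alternatives for single members, 607 of 624 values kept their direction and their side of the threshold. Low counts limit Thbs2 and, in WT, Spp1.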
